A study of Mus musculus with 10 samples.

Results

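Cells read antibody bound to a target through Fc receptors, and 9 genes of this system were followed here across sorted cells of the ischemic mouse brain: the IgG receptors Fcgr1, Fcgr2b, Fcgr3 and Fcgr4, the signalling adaptors Fcer1g and Tyrobp, the kinase Syk, the neonatal Fc receptor Fcgrt and the Fc receptor-like gene Fcrls. They were taken by symbol from the 28585 genes of the deposited table, and all 9 were found there and passed the filter on low counts. The set is wider than its usual name, Fc gamma receptors and ITAM adaptors. Fcgrt is related to MHC class I rather than to the classical receptors, Fcrls belongs to the Fc receptor-like family, and Syk is the kinase that reads the adaptors.

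The study compared brain microglia with cells that carry a CD11c reporter, all from the ipsilateral, ischemic hemisphere. 3 libraries (replicates 39, 40 and 41) held CX3CR1+ microglia of CX3CR1CreERT2:Rosa26-tdT mice aged 13 to 14 weeks. 3 libraries (replicates 3, 11 and 15) held CD11c-eYFP+ cells of C57BL/6 mice aged 15 to 16 weeks, parabiotic with Tg(Itgax-Venus)1Mnz, and are called parabiotic CD11c cells. 4 libraries (replicates 23, 24, 26 and 27) held CD11c-eYFP+ cells of Tg(Itgax-Venus)1Mnz mice aged 13 to 14 weeks, called transgenic CD11c cells. The labels of parabiotic replicate 15 give strain C57BL/6 and the variation Tg(Itgax-Venus)1Mnz but no cell type and no sex, and its group was read from its title, while the other 9 libraries are labelled female.

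These groups are defined by reporters and not by antibody stains. The tdTomato reporter marks cells in which Cre driven by the Cx3cr1 locus has acted, so other cells that use this locus can carry it too. Venus follows the promoter of Itgax, the CD11c gene. In the joined pairs only cells that came from the partner carry Venus, and the host keeps its own unmarked leukocytes. In the reporter mice any cell that uses the Itgax promoter can carry Venus, resident cells included. Nothing in the labels says whether replicates are separate mice, so the p-values measure the spread between these libraries, which may be in part technical.

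Libraries held 31534625 to 41730688 counts. Summed over 8 microglia markers (Siglech among them), the level in CPM, the count of a gene relative to the TMM-scaled total of its library, was 18408 to 19376 in microglia, 1760.5 to 2750.2 in parabiotic cells and 4916 to 14058 in transgenic cells. Over 8 markers of conventional dendritic cells it was 180.3 to 273 CPM in microglia, 19238 to 24245 in parabiotic cells and 3055 to 12273 in transgenic cells. This sum was largely Cd74 and H2-Aa, genes of MHC class II presentation. Zbtb46 had 5.36 and 6.70 CPM in transgenic replicates 26 and 27, not above the microglia range of 5.63 to 8.81. The rest of the list lay above the microglia range in both. Transgenic libraries were intermediate in both sums and unequal: replicate 26 had the highest microglia sum and the lowest dendritic sum of the 4, and replicate 27 the lowest microglia sum. Replicates 26 and 27 also carry library numbers, in the column names, that lie apart from the consecutive numbers of the other 8.

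As background, the activating receptors Fcgr1, Fcgr3 and Fcgr4 bind IgG outside the cell but cannot signal alone. They depend on the gamma chain encoded by Fcer1g, whose tail holds an immunoreceptor tyrosine-based activation motif (ITAM). Tyrobp, also called DAP12, carries the same kind of motif for other receptors such as Trem2. Once Src family kinases phosphorylate the tyrosines of the motif, Syk docks there and starts the cascade that leads to phagocytosis and cytokine release. Fcgr2b is the inhibitory IgG receptor, and its own tail holds an inhibitory motif (ITIM) that recruits the phosphatase encoded by Inpp5d. Microglia are known to express these receptors and to use Tyrobp signalling through Trem2.

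The signalling motifs are short, and their coding DNA is shown because it is what separates an activating from an inhibitory tail. Capitals mark the tyrosine codons. Each ITAM holds a pair of them, while the ITIM holds a single one. The sequences were read from GENCODE M21 transcripts on the mouse build GRCm38, 5′ to 3′, at codons 65 to 79 of 86 in Fcer1g, 92 to 106 of 114 in Tyrobp and 317 to 322 of 340 in Fcgr2b.
Fcer1g ITAM: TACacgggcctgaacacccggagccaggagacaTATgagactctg
Tyrobp ITAM: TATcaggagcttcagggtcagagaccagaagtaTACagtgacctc
Fcgr2b ITIM: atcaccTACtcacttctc
Each tyrosine codon is followed a few codons on by a leucine codon (ctg, ctt or ctc). The tails of Fcgr2b and its activating relative Fcgr3 differ, but their extracellular parts are near copies. The longest run shared by their coding sequences was 129 bases (bases 278 to 406 of the Fcgr2b coding sequence and 263 to 391 of Fcgr3).
Fcgr2b and Fcgr3 shared run: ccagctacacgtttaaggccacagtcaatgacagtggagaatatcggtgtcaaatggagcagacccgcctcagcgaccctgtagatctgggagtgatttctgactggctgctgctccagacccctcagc
A read inside this run cannot be assigned to either gene. Of all 50-base windows in the transcripts, 6.95% of those of Fcgr2b and 9.58% of those of Fcgr3 occur in another gene, so the counts of this pair carry that uncertainty. In the other 7 genes no 50-base window was shared. The antisense gene Gm38204 overlaps 155 exon bases of Fcgr2b. It held 21 counts over all 10 libraries. The strand option of the counting was not stated in the labels used here.

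The genes lie on 4 chromosomes of GRCm38. Fcgr2b (chr1:170958617-170976547, minus strand), Fcgr4 (chr1:171018920-171029761, plus strand), Fcgr3 (chr1:171051174-171064935, minus strand) and Fcer1g (chr1:171229572-171234365, minus strand) sit in 1 stretch of chromosome 1. Fcrls (chr3:87250758-87263738, minus strand) and Fcgr1 (chr3:96282909-96293969, minus strand) are on chromosome 3. Tyrobp (chr7:30413760-30417585, plus strand) and Fcgrt (chr7:45092990-45103851, minus strand) are on chromosome 7, and Syk (chr13:52583173-52648792, plus strand) is on chromosome 13. Neighbours on chromosome 1 did not move alike: Fcgr3 was lower in parabiotic cells, and its neighbours Fcgr2b, Fcgr4 and Fcer1g did not pass the test.

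Promoters of 8 of the 9 genes were available from RefSeq (GRCm38.p6, 250 bases before to 50 after a start). They were searched on both strands for the core of the site of PU.1, the myeloid transcription factor, as GAGGAA and its reverse complement TTCCTC. 6 of the 10 promoters of these genes held it (that of Fcgr1, both of Fcgr3, those of Fcgr4 and Fcrls and 1 of 2 of Syk), and 28.3% of 32851 promoters of this length held it. The 2 Fcgr3 promoters overlap over most of their length and hold the same match, which is counted in both. By gene, 5 of 8 held it, and the share by gene over all genes was not computed. For the 4 genes that differed between parabiotic cells and microglia, 1 promoter each is shown, with the match in capitals, as the strand of the gene reads. For Syk this is the promoter with a match, and the one at its first start, not shown, held none.
Fcgr1 (chr3:96293920-96294219, minus strand): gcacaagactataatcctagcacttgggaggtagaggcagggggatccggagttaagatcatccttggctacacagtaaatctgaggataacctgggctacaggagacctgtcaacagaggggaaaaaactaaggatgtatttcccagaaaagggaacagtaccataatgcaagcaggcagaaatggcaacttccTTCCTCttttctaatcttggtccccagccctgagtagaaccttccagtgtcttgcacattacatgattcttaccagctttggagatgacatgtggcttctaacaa
Fcgr3 (chr1:171059345-171059644, minus strand): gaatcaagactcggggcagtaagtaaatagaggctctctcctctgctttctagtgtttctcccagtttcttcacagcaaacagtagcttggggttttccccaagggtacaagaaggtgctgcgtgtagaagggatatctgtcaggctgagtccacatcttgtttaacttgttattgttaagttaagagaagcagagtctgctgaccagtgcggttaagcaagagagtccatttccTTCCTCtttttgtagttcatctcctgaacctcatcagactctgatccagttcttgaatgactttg
Fcrls (chr3:87263475-87263774, minus strand): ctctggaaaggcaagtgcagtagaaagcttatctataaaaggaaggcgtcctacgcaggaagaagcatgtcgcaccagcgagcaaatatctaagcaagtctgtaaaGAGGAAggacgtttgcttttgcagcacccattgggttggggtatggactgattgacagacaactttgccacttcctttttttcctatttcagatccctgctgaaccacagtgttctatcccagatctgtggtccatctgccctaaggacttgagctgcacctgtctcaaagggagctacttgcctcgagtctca
Syk, second start (chr13:52596632-52596931, plus strand): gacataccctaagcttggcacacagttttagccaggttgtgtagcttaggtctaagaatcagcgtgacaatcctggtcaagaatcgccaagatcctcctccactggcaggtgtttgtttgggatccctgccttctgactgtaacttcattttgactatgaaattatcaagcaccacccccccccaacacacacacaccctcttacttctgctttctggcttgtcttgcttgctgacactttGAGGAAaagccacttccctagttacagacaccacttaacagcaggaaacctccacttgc
The match began at position -55 from the start in Fcgr1, -15 in Fcgr3, -144 in Fcrls and -9 in Syk. Fcgr4, which did not pass the test in any comparison, held it at -22. Fcgr2b, Fcer1g and Fcgrt, which did not pass in any comparison either, held none. The letters were thus present in genes that were lower, higher and not called, and a match is a description of the sequence alone.

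In parabiotic CD11c cells against microglia, Fcgr1, Fcgr3 and Fcrls were lower and Syk was higher, while Fcgr2b, Fcgr4, Fcgrt and both ITAM adaptors did not pass the test. 4 of the 9 genes were called, 1 higher and 3 lower. Over all 15151 genes tested, edgeR's quasi-likelihood test called 35.3% in this comparison at a Benjamini-Hochberg adjusted p under 0.05, with 17.4% higher and 17.9% lower, so a share of 4 in 9 is near the background. For the same 4 genes no parabiotic library fell within the microglia range, 1 above it and 3 below, which held for 60.3% of all genes (30.5% above and 29.7% below). The median log2 fold change of the 9 genes was 0.15, beside -0.02 over all genes. In bulk RNA of sorted cells, fewer cells of a type and less RNA per cell cannot be told apart.

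**Figure D1:**
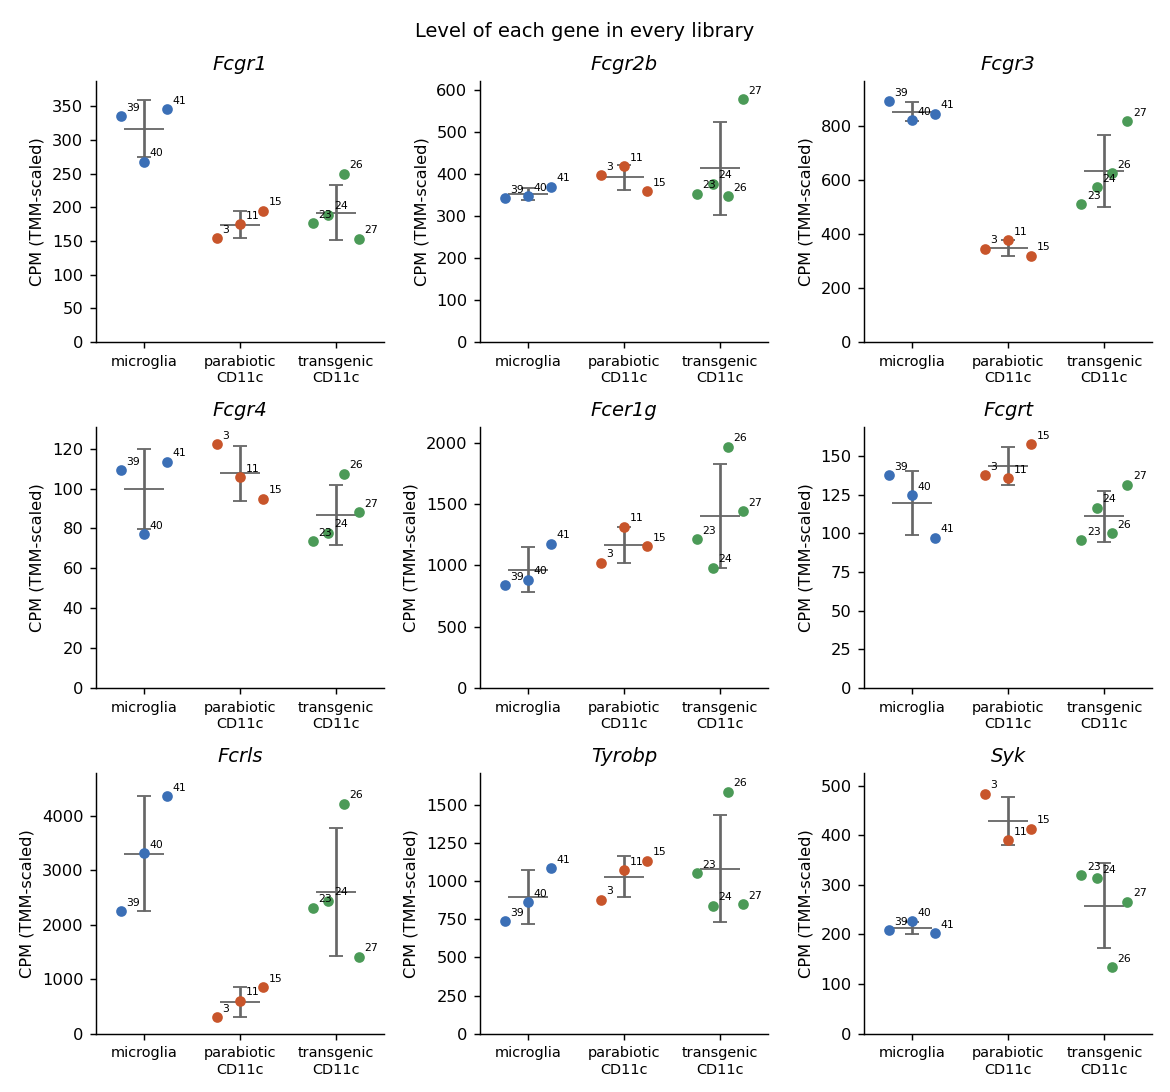
Levels of the 9 genes in all 10 libraries, 1 panel a gene, with TMM-scaled CPM on the vertical axis and the 3 groups on the horizontal axis. Points are libraries and bars are group means. Fcrls in parabiotic cells (302 to 856 CPM) and Fcgr3 in parabiotic cells (320.0 to 379 CPM) lie below every library of the other groups, and Syk is above them in parabiotic cells (389.6 to 484 CPM).

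Fcgr3, the low-affinity activating receptor for immune complexes, had the lowest p of the 9 in this comparison. Its level was 893, 823 and 846 CPM in microglia, 346, 379 and 320.0 in parabiotic cells and 510.2, 575, 626 and 819 in transgenic cells. Every microglia library lay above every transgenic one, and every transgenic one above every parabiotic one. Parabiotic cells had 2.45-fold less than microglia (log2 fold change -1.29 ± 0.19 SE, edgeR adjusted p = 0.000314). Transgenic cells had 1.82-fold more than parabiotic cells (0.86 ± 0.17, edgeR adjusted p = 0.00915), a call that ended without parabiotic replicate 15 (0.80, adjusted p = 0.0558). Between transgenic cells and microglia the difference of -0.43 ± 0.17 did not pass (edgeR adjusted p = 0.105). It did pass with transgenic replicate 27 left out (-0.57, adjusted p = 0.0184). Without that library the 3 other transgenic levels were all at or under 626 CPM.

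Fcgr1, the high-affinity receptor that binds monomeric IgG, separated microglia from both kinds of CD11c cells. Microglia had 335, 268 and 346 CPM, parabiotic cells 154, 175 and 195, and transgenic cells 177, 189, 249.8 and 154. The lowest microglia library stood above the highest CD11c library. The gene was lower in parabiotic cells (log2 fold change -0.86 ± 0.20, edgeR adjusted p = 0.00612) and in transgenic cells (-0.72 ± 0.18, edgeR adjusted p = 0.0257). The second call ended without microglia replicate 39 (adjusted p = 0.105) or 41 (adjusted p = 0.0851) and when only those groups entered the fit (adjusted p = 0.0638). The CD11c groups overlapped and their difference of 0.14 ± 0.18 did not pass (edgeR adjusted p = 0.715).

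Fcgr4, an activating receptor of the mouse for some IgG2 subclasses, had 109, 77.0 and 113 CPM in microglia, 122, 106 and 94.9 in parabiotic cells and 73.7, 77.9, 108 and 88.3 in transgenic cells. All 3 groups overlapped. Its log2 differences were 0.11 ± 0.20 for parabiotic cells against microglia, -0.20 ± 0.19 for transgenic cells against microglia and -0.31 ± 0.19 for transgenic against parabiotic cells, with edgeR adjusted p of 0.713, 0.479 and 0.361. Of the 3 activating receptors it was the only one with no call in these comparisons.

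The inhibitory receptor Fcgr2b kept to a narrow range in all but 1 library. It had 343, 347 and 369.9 CPM in microglia, 397, 419.6 and 359.9 in parabiotic cells and 353, 377, 348 and 579 in transgenic cells. Transgenic replicate 27 stood apart from the rest. The log2 difference was 0.15 ± 0.20 for parabiotic cells against microglia (edgeR adjusted p = 0.595) and 0.23 ± 0.19 for transgenic cells against microglia (edgeR adjusted p = 0.42). Between the CD11c groups it was 0.08 ± 0.19 (edgeR adjusted p = 0.857), and it turned to -0.12 without replicate 27. None of these values shows that the groups are equal, since their standard errors leave room for moderate changes.

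**Figure D2:**
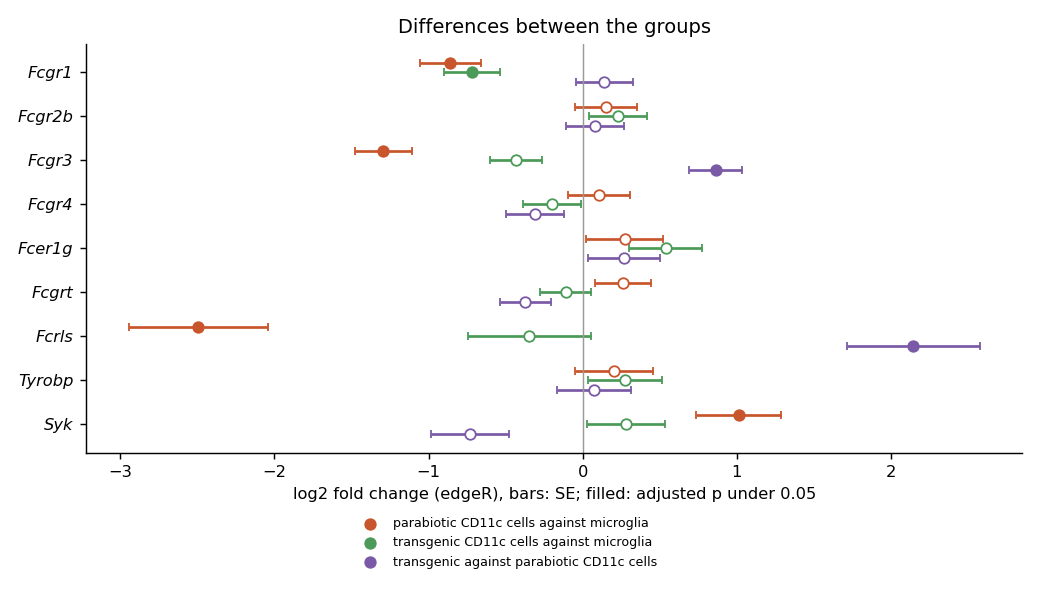
Log2 fold changes of the 9 genes in the 3 comparisons from edgeR, with bars of 1 standard error. Filled points passed an adjusted p of 0.05. Fcrls (-2.49) and Fcgr3 (-1.29) are the lowest in parabiotic cells against microglia and the highest in transgenic against parabiotic cells (2.15 and 0.86), and Syk runs the other way (1.01 and -0.73, the second not past the threshold).

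The make-up of the IgG receptor transcripts was described per exon length, as CPM per kilobase of exon (RPKM). Fcgr3 led in every library, with a mean of 492 ± 20.4 RPKM (SD, n = 3) in microglia, 201 ± 16.9 (n = 3) in parabiotic cells and 364 ± 76.7 (n = 4) in transgenic cells. Its share of the summed RPKM of Fcgr1, Fcgr2b, Fcgr3 and Fcgr4 was 62.9% to 67.8% in microglia, 46.4% to 49.3% in parabiotic cells and 59.8% to 67.3% in transgenic cells. The share of Fcgr4 was 8.77% to 11.7%, 19.0% to 22.9% and 10.0% to 14.2% in the same order. Fcgr1 held 16.2% ± 1.24 in microglia (n = 3), 16.1% ± 2.57 in parabiotic cells (n = 3) and 13.1% ± 3.24 in transgenic cells (n = 4), with groups that overlapped. In parabiotic cells Fcgr3 thus held less of the total, and Fcgr4 and Fcgr2b more, than in any microglia library.

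The inhibitory share, that of Fcgr2b, was 7.50%, 8.58% and 8.24% in microglia, 16.2%, 16.4% and 15.6% in parabiotic cells and 12.7%, 12.3%, 9.96% and 14.2% in transgenic cells. The 3 groups did not overlap, and the transgenic libraries lay between the others. Fcgr3 made up 65.3% of the sum in microglia, so a lower Fcgr3 raises the Fcgr2b share by arithmetic, and the share is no evidence beyond the levels above. The difference was 7.95 percentage points between parabiotic cells and microglia, and 4.17 between transgenic cells and microglia. Two-sided exact permutation tests gave p = 0.1 for the first, the smallest that 20 splits of 3 against 3 libraries allow, and p = 0.0571 for the second. Transgenic and parabiotic cells differed by -3.78 points, also with an exact permutation p of 0.0571, where 35 splits allow 0.0286 at the lowest. After Benjamini-Hochberg adjustment over the 6 share tests each of the 3 permutation p was 0.171, so none passed. The sizes depend on the gene lengths used: with counts not divided by length the first difference was 16.5 points, and the direction was the same.

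**Figure D3:**
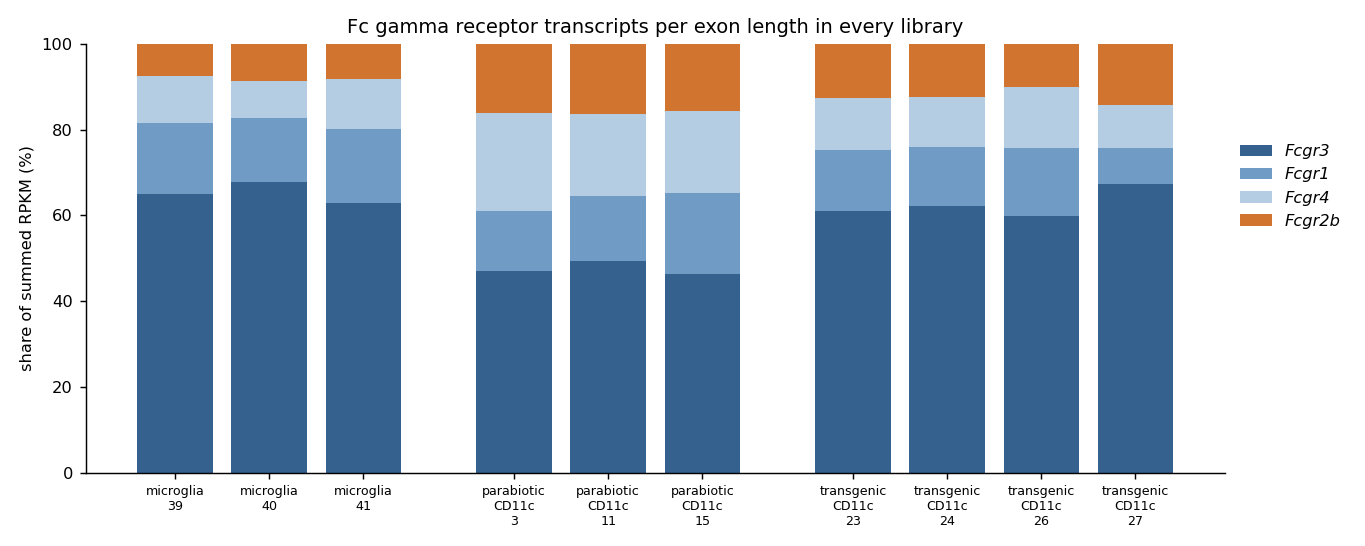
Share of each IgG receptor in the summed RPKM of Fcgr1, Fcgr2b, Fcgr3 and Fcgr4 (vertical axis, percent), 1 stacked bar a library. The inhibitory receptor Fcgr2b, at the top of each bar, holds 7.50% to 8.58% in microglia, 9.96% to 14.2% in transgenic cells and 15.6% to 16.4% in parabiotic cells.

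Of the adaptors, Fcer1g, the common gamma chain that the activating receptors need, was abundant in every group. Its level was 836, 882 and 1178 CPM in microglia, 1022, 1315 and 1158 in parabiotic cells and 1213, 981, 1970.1 and 1441 in transgenic cells. Groups overlapped, and transgenic replicate 26 was the highest library. The largest of its 3 log2 differences, 0.54 ± 0.24 for transgenic cells against microglia, had an edgeR adjusted p of 0.141. Against microglia, parabiotic cells differed by 0.27 ± 0.25 (edgeR adjusted p = 0.433), although their receptors Fcgr1 and Fcgr3 were lower there.

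Tyrobp, the adaptor of Trem2 and many other receptors, had 738, 862 and 1085 CPM in microglia, 879, 1074 and 1135 in parabiotic cells and 1053, 838, 1587 and 849 in transgenic cells. Replicate 26 was again the highest, and all groups overlapped. Its log2 differences were 0.20 ± 0.26, 0.27 ± 0.24 and 0.07 ± 0.24 in the order of the comparisons, with edgeR adjusted p of 0.576, 0.453 and 0.902. Per exon length the adaptors were close to each other: Tyrobp held 54.8% ± 1.27 of their summed RPKM in microglia (n = 3), 53.6% ± 2.34 in parabiotic cells (n = 3) and 50.2% ± 4.53 in transgenic cells (n = 4). Transgenic replicate 27 was the lowest, at 43.6%. Exact permutation tests of this share gave two-sided p of 0.5, 0.114 and 0.343, and adjusted p of 0.5, 0.171 and 0.412.

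Syk, the kinase that binds phosphorylated ITAMs, was the 1 gene of the set that was higher in parabiotic cells. It had 209, 227 and 202 CPM in microglia, 484, 389.6 and 413 in parabiotic cells and 319.6, 314, 134 and 266 in transgenic cells. Parabiotic cells stood above all other libraries, and transgenic replicate 26 was the lowest of the 10. The log2 fold change of parabiotic cells against microglia was 1.01 ± 0.27 (edgeR adjusted p = 0.0143), a level 2.02-fold higher. This call was close to the threshold: it ended without microglia replicate 39 (adjusted p = 0.0523), microglia replicate 41 (0.0513) or parabiotic replicate 3 (0.0545). Transgenic cells differed from microglia by 0.28 ± 0.25 (edgeR adjusted p = 0.47) and from parabiotic cells by -0.73 ± 0.25 (edgeR adjusted p = 0.097), without overlap of libraries in the second case. Without replicate 26 both differences passed, at 0.47 (adjusted p = 0.0474) and -0.57 (adjusted p = 0.0256).

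Replicate 26 was thus the highest transgenic library for both adaptors and the lowest for Syk. The exon length of the genes was 874 bases for Fcer1g, 667 for Tyrobp and 9362 for Syk. In the same library the median of 83 genes with at most 1000 exon bases lay 0.60 (log2) above the other 3 transgenic libraries, and that of 2512 genes with at least 6000 bases lay 0.28 below (-0.28). In replicate 24 the medians were -0.59 and 0.20. The part of this difference in the adaptor and Syk values was not tested.

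Fcrls showed the largest difference of the 9. This Fc receptor-like gene is a known mark of mouse microglia and is not known as a signalling IgG receptor. Its level was 2247, 3311 and 4355 CPM in microglia, 302, 603 and 856 in parabiotic cells and 2311, 2441, 4218 and 1416 in transgenic cells. Parabiotic libraries lay below all others, and transgenic ones overlapped microglia. It was 5.63-fold lower in parabiotic cells than in microglia (log2 fold change -2.49 ± 0.45, edgeR adjusted p = 0.00152) and 4.42-fold higher in transgenic than in parabiotic cells (2.15 ± 0.43, edgeR adjusted p = 0.00903). Between transgenic cells and microglia it differed by -0.35 ± 0.40 (edgeR adjusted p = 0.574). The highest transgenic library, replicate 26, also had the highest microglia marker sum (14058 CPM) and the lowest, replicate 27, the lowest sum (4916 CPM), and the part of this in the Fcrls level was not tested.

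Fcgrt, which encodes the heavy chain of the neonatal Fc receptor that recycles IgG and albumin, had 138, 125 and 97.3 CPM in microglia, 138, 136 and 158 in parabiotic cells and 95.8, 117, 100.3 and 131 in transgenic cells. Transgenic and parabiotic libraries did not overlap, but the log2 difference of -0.37 ± 0.17 did not pass (edgeR adjusted p = 0.2). Against microglia the differences were 0.26 ± 0.18 for parabiotic cells (edgeR adjusted p = 0.285) and -0.11 ± 0.17 for transgenic cells (edgeR adjusted p = 0.673). B2m encodes its light chain and had 3172 to 7317 CPM over the 10 libraries.

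Per exon length, Tyrobp, Fcer1g and Fcrls led in microglia with means of 1342 ± 264, 1105 ± 212 and 1416 ± 452 RPKM (SD, n = 3), spreads that overlap. In parabiotic cells the adaptors led, at 1543 ± 200.3 RPKM for Tyrobp and 1333 ± 168 for Fcer1g, and Fcrls followed at 252 ± 119, near Fcgr3 at 201 ± 16.9. In transgenic cells Tyrobp had 1622 ± 526, Fcer1g 1603 ± 484 and Fcrls 1112 ± 503 RPKM (n = 4). Syk was the lowest of the 9 genes on this scale in each group, at 22.7 ± 1.34 RPKM in microglia, 45.8 ± 5.23 in parabiotic cells and 27.6 ± 9.21 in transgenic cells. The scale used all 9362 exon bases of Syk, against 5363 in its longest transcript, so this rank depends on the length chosen.

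In transgenic CD11c cells against microglia 1 of the 9 genes was called, Fcgr1, which was lower. The background was 13.7% of all genes called, 8.88% higher and 4.79% lower. Libraries did not overlap for 2 of the 9 (Fcgr1 and Fcgr3, both lower in transgenic cells), against 30.3% of all genes (15.6% higher and 14.7% lower). The median log2 fold change was -0.11 over the 9 genes and 0.02 over all. In transgenic against parabiotic cells Fcgr3 and Fcrls were called higher and none lower, where edgeR called 10.1% of all genes, 7.63% higher and 2.42% lower. At an unadjusted p under 0.05, 2 of the 9 were lower there (Fcgrt and Syk), against 9.11% of all genes, and DESeq2 called 1 lower, Syk (-0.75, adjusted p = 0.0417). For 4 of the 9 (Fcgr3, Fcrls, Fcgrt and Syk) the libraries did not overlap, against 22.7% of all genes (12.4% higher and 10.3% lower), and the medians were 0.08 and 0.04. The 3 comparisons share libraries, so their values are given side by side and not as independent evidence.

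The receptors that use the same adaptors were examined next, in a list of 27 activating partner receptors of which 25 were in the table. 21 passed the filter on low counts, but 6 of these (Clec4b1, Pira2, Sirpb1a, Sirpb1b, Sirpb1c and Klrk1) were below its cutoff of 0.289 CPM in at least 1 microglia library. These 6 passed through the CD11c libraries, so no count over the 21 is read as a result about the receptors. Without the filter, edgeR called 17 of the 25 higher and 2 lower in parabiotic cells than in microglia, where it called 8.05% of all 28585 genes higher and 9.17% lower. In transgenic cells against microglia 14 were higher and none lower, against 3.77% and 2.27% of all genes, and 17 were higher and 1 lower at an unadjusted edgeR p under 0.05. In transgenic against parabiotic cells 1 was higher and 6 lower, against 3.80% and 1.06%. The list is made up of lectin-like and immunoglobulin-like receptors of myeloid cells, several of which are near copies of each other (Sirpb1, Pilrb, Cd300 and Pira genes), so counts can be split between copies and single values are uncertain.

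Sirpb1b and Sirpb1c, activating members of the signal regulatory protein family that pair with Tyrobp, had the lowest p among those that were higher. Sirpb1b had 0.254, 0.123 and 0.158 CPM in microglia, 17.1, 14.9 and 19.98 in parabiotic cells and 8.51, 8.84, 5.42 and 6.07 in transgenic cells, so the 3 groups did not overlap. Its log2 fold change was 6.56 ± 0.37 in parabiotic cells (edgeR adjusted p = 1.65e-06), and that of Sirpb1c was 6.58 ± 0.42 (edgeR adjusted p = 2.63e-06). Both genes passed the filter on low counts through the CD11c libraries, so their p and rank carry that limit. Neither call ended in the fit without the filter or under any other of the 20 alternatives. Pilrb1, a Tyrobp-paired receptor, was higher in both CD11c groups than in microglia and lower in transgenic than in parabiotic cells (-1.53 ± 0.31, edgeR adjusted p = 0.00981, and 0.0648 without parabiotic replicate 3). The microglial receptor Siglech, which also signals through Tyrobp, went the other way, with 848, 859 and 568 CPM in microglia, 29.0, 25.6 and 36.9 in parabiotic cells and 281, 277, 124 and 35.1 in transgenic cells. Siglech was lower in parabiotic cells (-4.64 ± 0.65, edgeR adjusted p = 0.00029) and in transgenic cells (-2.08 ± 0.53, edgeR adjusted p = 0.0255), and the second call ended under 6 of 20 alternatives, among them the fit without the filter on low counts (edgeR adjusted p = 0.0963) and those without microglia replicate 39 or 40 or transgenic replicate 26. Clec5a, a lectin-like Tyrobp partner, was lower in parabiotic cells than in microglia (-0.76 ± 0.20, edgeR adjusted p = 0.0115, and 0.0534 without parabiotic replicate 11) and did not pass between transgenic cells and microglia (0.06 ± 0.18).

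Trem2, the best known Tyrobp partner in microglia, was named after its values were seen. It had 675, 791 and 950.1 CPM in microglia, 436, 567 and 638 in parabiotic cells and 659, 683, 990.5 and 463 in transgenic cells. Parabiotic and microglia libraries did not overlap, but the difference of -0.56 ± 0.26 did not pass (edgeR adjusted p = 0.122).

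**Figure D4:**
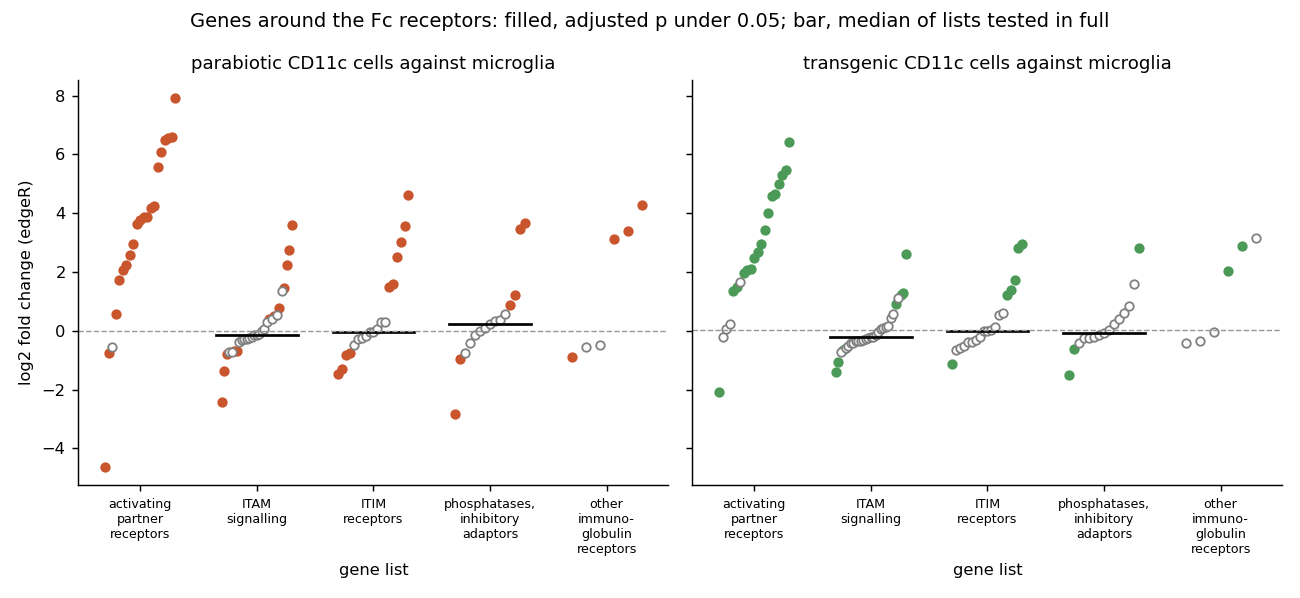
Log2 fold changes (edgeR) of the tested members of 5 lists of genes around the Fc receptors, for parabiotic (left) and transgenic (right) CD11c cells against microglia. Each point is a gene, filled where the adjusted p was under 0.05, and the dashed line is the median of all genes. Bars are medians of the 3 lists whose members all passed the filter on low counts. In these lists Lat (ITAM signalling) and Sla2 (phosphatases and inhibitory adaptors) passed it through the CD11c libraries. The medians of ITAM signalling genes are -0.16 on the left and -0.21 on the right, and Siglech is the lowest point in each panel (-4.64 and -2.08).

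Genes that act beside or below Syk included some called in each direction, most not called. Of 29 ITAM signalling genes tested, 7 were higher and 5 lower in parabiotic cells than in microglia (median -0.16), 4 were higher and 3 lower in transgenic cells than in microglia (median -0.21), and 2 were higher and 2 lower in transgenic than in parabiotic cells (median -0.15). In the first comparison 17 of the 29 were not called, and the shares called are near those of all genes, 17.4% higher and 17.9% lower. In the other comparisons the background is 8.88% and 4.79%, and 7.63% and 2.42%. 1 of the 29, Lat, was below the filter cutoff of 0.289 CPM in at least 1 microglia library and passed through the CD11c libraries. Without the filter, edgeR called 5 higher and 6 lower in the first comparison, 3 and 3 in the second and 1 and 2 in the third. The shares of all genes without the filter are those given for the partner receptors. Among the Src family kinases that phosphorylate ITAMs, Fgr was higher in parabiotic cells (2.74 ± 0.31, edgeR adjusted p = 7.62e-05) and Lyn was lower (-0.68 ± 0.13, edgeR adjusted p = 0.00213). Lyn had 712, 669 and 671 CPM in microglia, 442, 418 and 424 in parabiotic cells and 505, 534, 532 and 569.7 in transgenic cells. Fgr had 25.5, 35.6 and 44.0 CPM in microglia, 254, 219 and 228 in parabiotic cells and 116, 108.5, 54.6 and 62.7 in transgenic cells. Neither gene's microglia and parabiotic libraries overlapped, and the kinases lay in opposite order.

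Fyn was higher and Src lower in transgenic cells than in microglia, at 0.91 ± 0.18 (edgeR adjusted p = 0.00789) and -1.07 ± 0.28 (edgeR adjusted p = 0.0317). The call for Fyn ended without microglia replicate 40, where its adjusted p was 0.05, and that for Src without microglia replicate 39 or 40 (adjusted p up to 0.151). Plcg1, a phospholipase that releases calcium signals, was lower in parabiotic cells (-2.41 ± 0.27, edgeR adjusted p = 7.24e-05) and in transgenic cells (-1.39 ± 0.24, edgeR adjusted p = 0.0044). It had 122, 95.6 and 81.2 CPM in microglia, 14.6, 21.2 and 20.4 in parabiotic cells and 49.1, 45.5, 26.4 and 31.0 in transgenic cells, with no overlap. Vav3, a signalling protein that acts below Syk, was higher in both, at 3.60 ± 0.34 (edgeR adjusted p = 2.33e-05) and 2.60 ± 0.32 (edgeR adjusted p = 0.000568). Lcp2, the adaptor SLP-76, was higher in transgenic than in parabiotic cells (0.57 ± 0.15, edgeR adjusted p = 0.0302), a call that ended under 8 of 20 alternatives, among them without microglia replicate 40, parabiotic replicate 3 or 11 or transgenic replicate 24 or 26. The calls of Plcg1 and Vav3 between the CD11c groups (1.02 ± 0.25 and -0.998 ± 0.29) ended under 6 and 12 of 20, with adjusted p up to 0.13 and 0.182, and both ended when any 1 of the parabiotic replicates or transgenic replicate 23 or 24 was left out.

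Among 19 inhibitory receptors with ITIMs besides Fcgr2b, 6 were higher and 4 lower in parabiotic cells than in microglia (median -0.04), 5 higher and 1 lower in transgenic cells than in microglia (median -0.01), and 1 higher and 2 lower in transgenic than in parabiotic cells (median -0.07). These numbers, too, stand beside 17.4% and 17.9%, 8.88% and 4.79%, and 7.63% and 2.42% of all genes called higher and lower. Cd300a, a lipid-binding inhibitory receptor, had 79.3, 112 and 87.9 CPM in microglia, 459, 530.5 and 594 in parabiotic cells and 256, 262, 178 and 176 in transgenic cells. The groups did not overlap, and Cd300a was higher in parabiotic cells by 2.51 ± 0.22 (edgeR adjusted p = 1.6e-05). Pirb, which binds MHC class I, was higher by 3.04 ± 0.30 in the same comparison (edgeR adjusted p = 2.63e-05), and it has close copies among the Pira genes. Lair1, a collagen receptor, was lower by -1.29 ± 0.21 (edgeR adjusted p = 0.000759) and Pilra by -0.84 ± 0.18 (edgeR adjusted p = 0.00364). Cd33, a sialic acid receptor, was lower in transgenic cells than in microglia (-1.14 ± 0.29, edgeR adjusted p = 0.0278), a call that ended under 5 of 20 alternatives, among them without microglia replicate 39 or 40 or transgenic replicate 27. Lair1 was higher in transgenic than in parabiotic cells by 0.72 ± 0.20 (edgeR adjusted p = 0.0423), and this ended without any 1 library other than transgenic replicate 27.

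The phosphatases and inhibitory adaptors that act below these receptors gave 4 higher and 2 lower of 15 in parabiotic cells against microglia (median 0.25), 1 higher and 2 lower in transgenic cells against microglia (median -0.08), and 1 higher and none lower between the CD11c groups (median -0.22). 1 of the 15, Sla2, was below the filter cutoff of 0.289 CPM in at least 1 microglia library and passed through the CD11c libraries. Without the filter, edgeR called the same numbers of the 15, beside the shares of all genes given for the partner receptors. With the filter, 17.4% and 17.9%, 8.88% and 4.79%, and 7.63% and 2.42% of all genes were called higher and lower in turn. The medians of all genes were -0.02, 0.02 and 0.04. Inpp5d, the lipid phosphatase SHIP that the Fcgr2b ITIM recruits, had 1347, 1263 and 1159.8 CPM in microglia, 631, 597 and 704 in parabiotic cells and 962, 975, 593.5 and 735 in transgenic cells. Every CD11c library lay below every microglia library. It was lower in parabiotic cells (-0.96 ± 0.20, edgeR adjusted p = 0.0034), whose Fcgr2b level did not pass the test. In transgenic cells Inpp5d was lower by -0.62 ± 0.18 (edgeR adjusted p = 0.0473), which ended under 10 of 20 alternatives, with adjusted p up to 0.173. These included leaving out any microglia or parabiotic library or transgenic replicate 27. Ptpn22, a phosphatase of Src and Syk family kinases, was higher in parabiotic cells (3.45 ± 0.41, edgeR adjusted p = 9.78e-05) and in transgenic cells (2.81 ± 0.39, edgeR adjusted p = 0.00114). Dok3, an inhibitory adaptor, was higher in parabiotic cells by 0.88 ± 0.20 (edgeR adjusted p = 0.00524). Pag1, which recruits the Src inhibitor Csk to membranes, was lower there by -2.84 ± 0.38 (edgeR adjusted p = 0.000201). In transgenic cells Pag1 was lower than in microglia (-1.52 ± 0.33, edgeR adjusted p = 0.013, and up to 0.077 without microglia replicate 39 or 40 or with a term for the library numbers) and higher than in parabiotic cells (1.33 ± 0.34, edgeR adjusted p = 0.0324). The last call ended when any 1 of the parabiotic replicates or transgenic replicate 23 or 24 was left out.

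Of 13 receptors of other immunoglobulin classes and remaining Fc-related genes, 11 were in the table. 6 passed the filter on low counts, and 2 of these (Fcrla and Fcrl5) were below its cutoff in at least 1 microglia library and passed through the CD11c libraries. Without the filter, edgeR called 5 of the 11 higher and 1 lower in parabiotic cells than in microglia, and 2 higher and none lower in transgenic cells than in microglia (4 and 1 at an unadjusted p under 0.05), beside the same shares of all genes as for the partner receptors. Fcrlb, an intracellular Fc receptor-like gene, had 0.621, 0.890 and 0.601 CPM in microglia, 6.12, 6.36 and 5.95 in parabiotic cells and 2.79, 2.21, 1.06 and 5.53 in transgenic cells. It was higher in parabiotic cells by 3.12 ± 0.53 (edgeR adjusted p = 0.00096) and its relative Fcrla by 3.40 ± 0.73 (edgeR adjusted p = 0.00425). Both were higher in transgenic cells too, at 2.04 ± 0.49 (edgeR adjusted p = 0.0218) and 2.88 ± 0.70 (edgeR adjusted p = 0.0224), calls that ended when any 1 microglia library was left out (adjusted p up to 0.104). The p of Fcrla carry the limit that it passed the filter through the CD11c libraries. Its call in parabiotic cells did not end in the fit without the filter. Trim21, the cytosolic antibody receptor, was lower in parabiotic cells by -0.88 ± 0.21 (edgeR adjusted p = 0.00783), with 28.5, 22.3 and 27.1 CPM in microglia and 13.9, 11.7 and 16.9 in parabiotic cells.

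For each of the 9 genes the most similar patterns were sought among 6610 tested genes with a mean of at least 20 CPM, by Pearson's r of log2 CPM over the 10 libraries. The points share groups and library composition, so these values are descriptions. Fcgr3 was most like Tlr7, an endosomal RNA sensor (r = 0.983), and Pkig (r = 0.978). Tlr7 had 500.5, 412 and 399 CPM in microglia, 102, 136 and 127 in parabiotic cells and 240.2, 250.3, 290.1 and 374 in transgenic cells, the same order of groups as Fcgr3 and, like it, with replicate 27 highest among the transgenic libraries. Fcgr1 was most like Xaf1 (r = 0.982) and Irgm1 (r = 0.972), both interferon-induced genes. Irgm1 had 237, 167 and 198 CPM in microglia, 69.7, 70.0 and 70.6 in parabiotic cells and 70.3, 90.3, 132 and 51.9 in transgenic cells, with replicate 26 highest and replicate 27 lowest among the transgenic ones, as for Fcgr1.

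Fcrls was most like Cd180 (r = 0.984), a relative of the Toll-like receptors, and Adcy3 (r = 0.984), an adenylyl cyclase. Syk followed Ptafr, the receptor of platelet-activating factor (r = 0.982), and Gpalpp1 (r = 0.978), and replicate 26 was the lowest of the 10 libraries for all 3. Fcer1g was most like Gng5 (r = 0.986) and Ndufa1 (r = 0.982), and Tyrobp was most like Syngr1 (r = 0.955) and Pdzd11 (r = 0.953). In all 6 of these genes replicate 26 was the highest library. Fcgr2b was most like Tlk2 (r = 0.965) and Eaf1 (r = 0.961), with replicate 27 highest in each: Tlk2 had 40.9 CPM there and 20.7 to 24.8 in the other 9. The likeness was weaker for Fcgrt, with Inpp5k (r = 0.896) and Clec4a3 (r = 0.879), and for Fcgr4, with Xxylt1 (r = 0.842) and Chst14 (r = 0.804). Itgax, whose promoter drives Venus, had 22.6 to 56.9 CPM in microglia, 442 to 542 in parabiotic cells and 349, 318, 114 and 117 in transgenic replicates 23, 24, 26 and 27. Cx3cr1 is the gene whose locus drives Cre, in the microglia mice only. Its level was 1581 to 1858 CPM in microglia, 465 to 830 in parabiotic cells and 2026, 2794, 1746 and 268 in those transgenic libraries. Transgenic replicates 23 and 24 thus lay above every microglia library.

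Markers of other cells were checked because several of these also carry Fc receptors. Of 6 monocyte markers the summed level was 31.6 to 53.6 CPM in microglia, 938 to 1122 in parabiotic cells and 308 to 679 in transgenic cells. Of 6 border macrophage markers it was 197 to 401, 518 to 645 and 214 to 1201, highest in transgenic replicate 27, where Fcgr2b was also highest. In parabiotic cells and in replicate 27 this sum was largely F13a1 (368 to 482 and 947 CPM). The means of Mrc1, Cd163 and Lyve1 were lower in parabiotic cells than in microglia, and those of F13a1, Pf4 and Cbr2 higher. Of 8 neutrophil markers the summed level was 412 to 491 in microglia, largely Csf3r, with Ly6g and Retnlg at 0, 187 to 776 in parabiotic cells, highest in replicate 11, and 120.3 to 322 in transgenic cells, with Camp at 0. Of 6 B cell markers it was 212 to 274, 86.7 to 159 and 15.3 to 193, largely Ighm. For 5 natural killer cell markers no library exceeded 3.25 CPM, and for 6 T cell markers, with Cd8a at 0 in microglia, none exceeded 16.4. For 5 mast cell markers it was 0.633 to 1.75, 97.2 to 131 and 8.86 to 90.5, largely Kit, with Mcpt4, Cma1 and Tpsb2 at 0 in parabiotic cells. Astrocyte, neuron, endothelial and oligodendrocyte lists of 4 genes each reached at most 179, 3.52, 23.1 and 147 CPM. The part of any of these in the Fc receptor values was not tested.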

How the data were processed

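The authors deposited 1 table of raw counts, whole numbers by Ensembl gene, for 10 libraries of polyA RNA from sorted cells. Per the labels' protocols, cDNA was made with SMART-Seq v4 and libraries with NEBNext Ultra. Build GRCm38, STAR 2.5.3a, FastQC 0.11.5 and DESeq2 appear in the submitters' processing notes. How reads were counted, and with what strand option, was not given in the sources used here. GENCODE M21 gave symbols for 28492 of 28585 identifiers.

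Groups followed the labels and titles. Genes were filtered with filterByExpr (15151 kept, 13434 removed), scaled with TMM and tested with edgeR 4.0.16 (quasi-likelihood, robust, all 10 libraries in 1 fit) in R 4.3.3, with Benjamini-Hochberg adjustment over all genes tested and a threshold of 0.05. CPM are scaled by TMM, RPKM are CPM per kilobase of exon, and a standard error is the log2 fold change divided by the root of F. Between libraries the spread (biological coefficient of variation 0.317), more than depth, set the precision, and no pair of replicates agreed within counting error. Simulated data of 15151 genes were tested for parabiotic cells against microglia, transgenic cells against microglia and transgenic against parabiotic cells. Of 100 genes with a 2-fold change edgeR recovered 48, 60 and 49 in this order. Of 100 with a 4-fold change it recovered 100, 99 and 100, and it called 8, 4 and 6 unchanged genes. Far fewer genes were changed there than the 35.3%, 13.7% and 10.1% called in the data. The adjustment depends on that share, so these numbers do not give the recovery in the data themselves.

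The 9 genes, 5 pathway lists and 13 marker lists were chosen with earlier results of these data known. Other genes named are, per list and comparison, up to 2 called in each direction with the lowest p, and for each of the 9 genes the 2 with the highest r. Alternatives were RLE and upper quartile scaling, DESeq2 1.42.0, limma-voom (limma 3.58.1), other filters, only the groups compared, a term for the library numbers, non-robust dispersion, other gene lengths and each library left out. Removing transgenic replicates 26 and 27 together, and medians by exon length, were added after seeing the data.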

Additional observations from a re-analysis of the deposited data

Results flagged for a closer look

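In 4 of 55 genes checked, 1 transgenic library stood apart from the other 3, with a gap to the nearest of them above 0.829 of the whole range of the group, Dixon's critical value for 4 libraries. Fcgr2b had 579 CPM in replicate 27 and 348 to 377 in the others (gap 0.872 of the range). Tlk2 and Eaf1, named for their likeness to Fcgr2b, had 40.9 and 168 CPM in the same library, against 20.7 to 23.3 and 75.4 to 84.8 (0.872 and 0.899). Pdzd11, named for its likeness to Tyrobp, had 45.4 CPM in replicate 26 and 23.1 to 24.9 in the others (0.92). Chance alone gives about 1 in 20 groups. Over all 15151 tested genes 9.15% had such a library, which was replicate 27 in 799 genes, replicate 26 in 518, replicate 24 in 39 and replicate 23 in 31, so Fcgr2b was not singular in this.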

How the results depend on the processing

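Fcgr1, Fcgr3 and Fcrls were called lower in parabiotic cells than in microglia under all 20 alternatives, and Fcrls higher in transgenic than in parabiotic cells under all 20. Values that turned their sign were not called under any setting concerned: Fcgr4 in parabiotic cells against microglia was -0.077 without microglia replicate 40 (0.20 without 41), and the others were differences of transgenic against parabiotic cells. These were Fcgr1 without replicate 26 (-0.067, and 0.24 without 27), Fcgr2b with the library-number term (-0.10), without replicate 27 (-0.12, and 0.15 without 23) and without both (-0.12), Fcer1g with the library-number term (-0.087) and without both (-0.10), and Tyrobp with the library-number term (-0.12), without parabiotic replicate 3 (-0.035), without replicate 26 (-0.23, and 0.18 without 27) and without both (-0.14). Of the 9 genes, leaving out single libraries gave 0 to 1 higher in parabiotic cells against microglia, 0 to 1 higher and 0 to 2 lower in transgenic cells against microglia, and 1 to 2 higher and 0 to 1 lower in transgenic against parabiotic cells. In transgenic cells against microglia the number lower was 2 with DESeq2, 2 with the library-number term, 2 without replicates 26 and 27 and 0 with only those groups in the fit, and the number higher was 1 without both. The added calls are Fcgr3 (DESeq2 -0.47, adjusted p = 0.0487, library-number term -0.65, 0.0266, without both -0.66, 0.0038) and Syk (without both 0.57, 0.00811). In transgenic against parabiotic cells 1 gene, Syk, was lower with DESeq2 and 1 without both (-0.45, adjusted p = 0.0223). Of the tested pathway genes, 38 were higher and 14 lower in parabiotic cells against microglia. The numbers were 28 and 7 in transgenic cells against microglia, and 6 and 10 in transgenic against parabiotic cells. Over all genes tested the shares were 17.4% and 17.9%, 8.88% and 4.79%, and 7.63% and 2.42%. These pathway totals include genes below the filter cutoff in at least 1 microglia library, 6 of the 21 partner receptors among them. They are given only to show how calls depend on the settings. Without both replicates the pathway totals were 23 lower in the first comparison, and 12 higher and 20 lower in the third. With only the groups compared they were 22 lower, 3 lower and 3 higher in the comparisons in turn, DESeq2 gave 11 lower in the second and 17 lower in the third, the library-number term 1 lower in the second, and no low-count filter 3 higher in the third. Single libraries left out gave 17 to 29 higher and 1 to 9 lower in the second comparison and 0 to 6 higher and 4 to 18 lower in the third. The lowest values came without microglia replicate 40 (17 higher), microglia replicate 39 or 40 (1 lower), parabiotic replicate 11 (0 higher) and parabiotic replicate 3 (4 lower), and the highest without transgenic replicate 27 (18 lower). The cause was not tested. Over all genes DESeq2 called 3437 in the second comparison and 2419 in the third where edgeR called 2070 and 1523, the fit of only the groups compared gave 1229 and 999, the library-number term 1303 in the second, and removing both replicates gave 8334 in the first (edgeR 5347) and 3482 in the third. Leaving out single libraries gave 746 to 2684 in the second and 830 to 2510 in the third. Upper quartile scaling moved the median of all genes to -0.10 in parabiotic cells against microglia and changed no call of the 9 genes. The directions of the Fcgr2b and Tyrobp shares were the same under each alternative. No paired analysis was possible because the groups share no replicate numbers.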
